A study of Homo sapiens with 20 samples.

Results

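The 10 genes described here code for the subunits of eIF4F, the complex that recruits the small ribosomal subunit to capped mRNA, for its cofactors and for its repressors. They were taken by Ensembl ID from the count tables, where all 10 were found among 19029 IDs: EIF4G1 (ENSG00000114867), EIF4G2 (ENSG00000110321), EIF4G3 (ENSG00000075151), EIF4A1 (ENSG00000161960), EIF4A2 (ENSG00000156976), EIF4E (ENSG00000151247), EIF4B (ENSG00000063046), EIF4H (ENSG00000106682), EIF4EBP1 (ENSG00000187840) and EIF4EBP2 (ENSG00000148730). The study was done in HEK 293T, a transformed human embryonic kidney line labelled wild type, exposed for 1 h to 5 µM i14G1-12 or to DMSO, the vehicle. The series title places the work beside an inhibitor of eIF1-eIF4G1. After crosslinking and RNase digestion, small-subunit complexes were pulled down through 1 factor at a time (eIF1 via HA, eIF4G1, eIF2a via HA, eIF3), and the mRNA fragments they covered, called footprints, were sequenced. For eIF1 and eIF4G1 there were 3 libraries with i14G1-12 and 3 with DMSO, and for eIF2a and eIF3 there were 2 with i14G1-12 and 2 with DMSO, 20 libraries in 8 groups. The sources used here do not say how the HA-tagged factors were expressed or whether replicates were separate cultures, so the spread behind each p-value may be technical.

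In eIF4F, eIF4E binds the cap at the start of the mRNA, eIF4A is a helicase that unwinds RNA, and eIF4G is the scaffold that holds both and contacts eIF3 on the small subunit. The proteins eIF4B and eIF4H stimulate the helicase, and 4E-BP1 and 4E-BP2, products of EIF4EBP1 and EIF4EBP2, compete with eIF4G for eIF4E until the kinase mTOR phosphorylates them. The EIF4G2 product, also known as DAP5, resembles eIF4G but lacks the part that binds eIF4E. What is counted here is the mRNA of these genes inside initiation complexes, not the amount of the proteins.

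Some of these genes belong to the mRNAs with a 5′ terminal oligopyrimidine (TOP) start, a C at the cap followed by a run of C or T, a class that includes ribosomal protein mRNAs and is translated under the control of mTOR. The starts of the RNA helicase and cofactor genes and of EIF4E are shown to set these first bases side by side. They are from RefSeq (GRCh38.p14), 15 bases before and 15 bases from the annotated start on, 5′ to 3′ on the gene's strand, with the first 5 transcribed bases in capitals.
EIF4A2, chr3:186783562-186783591, plus strand: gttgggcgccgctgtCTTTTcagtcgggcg
EIF4B, chr12:53006441-53006470, plus strand: ttgcctcatccgggtCTTTTgcgttctctt
EIF4A1, chr17:7572810-7572839, plus strand: aggcgggcactccgcCCTAGtttctaagga
EIF4H, chr7:74174341-74174370, plus strand: ccttcctcgctcaccCTGGTtcctctcgga
EIF4E, chr4:98929119-98929148, minus strand: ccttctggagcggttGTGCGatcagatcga
A C followed by 4 bases that are each C or T, looked for only at the first base and on the gene's strand, stood at the start of EIF4A2 and EIF4B. It was found in 2 of the 13 annotated starts read for 9 of the genes, and in 1429 of 35116 starts in the whole table (4.07%). These letters describe the annotated starts, and cells may use others.

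Libraries held 10033 to 1161512 counts, and the 10 genes together took 0.336% to 0.438% of them. The second eIF2a DMSO library was the shallowest, with 118 genes at 10 or more counts and 37 counts for the 10 genes together. Levels are given in CPM, counts relative to library sizes scaled with TMM, a method that matches the bulk of genes between libraries. The scaling raised the values of every eIF1 library, for example DMSO a, whose effective size was 864219 for 1161512 counts. It did so most in eIF1 i14G1-12 library a, whose effective size was 333544 for 564021 counts. All values of the second eIF2a DMSO library were lowered, its effective size being 18898 for 10033 counts. The eIF1 columns match a group but not a numbered sample, so those libraries are called a, b and c. The cell line was not checked against marker genes, since the IDs could not be paired with names beyond the 10.

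Per length, the mRNAs of the family differed over a wide range. In CPM per kilobase of the counted sequence, averaged over the 8 groups, EIF4G2 stood highest at 364, above 97.3% of the 9426 genes tested. EIF4EBP1 followed at 269, EIF4H at 172, EIF4B at 155, EIF4A2 at 141, EIF4G1 at 106 and EIF4E at 64.6. At the low end were EIF4G3 at 27.3, EIF4EBP2 at 21.1 and EIF4A1 at 17.1, above 58.6% of genes. This order depends on dividing by the whole counted sequence, and where footprints lay along it was not examined. Without that division EIF4EBP1 (827 nt) and EIF4EBP2 (7491 nt) had 222 and 158 CPM, and EIF4G1 had 575 CPM. EIF4G2 was still highest at 1380 CPM and EIF4A1 lowest at 30.1 CPM. Of the 8 genes with counts in every library, the scaffold genes EIF4G3 and EIF4G1 varied least, with the highest library at 2.06 and 2.32 times the lowest. For EIF4A2 that ratio was 13.9. The 2 helicase paralogs lay far apart: EIF4A2 had 2760 counts over the 20 libraries and EIF4A1 had 250. The sources used here do not say where reads matching more than 1 gene went. RefSeq names 13 pseudogenes after EIF4A1, which also overlaps the readthrough gene SENP3-EIF4A1 at 17:7572825-7579006 in GRCh38.p14. It names 9 after EIF4B, 5 each after EIF4A2 and EIF4E, 3 after EIF4EBP2, 2 each after EIF4H and EIF4EBP1, and 0 after the 3 scaffold genes. The level of EIF4A1 is uncertain for that reason, and those of the others with copies less certain than those of the scaffolds. In the same build EIF4G1 lies at chr3:184314606-184335358, EIF4G2 at chr11:10797046-10808926, EIF4G3 at chr1:20806292-21176897 and EIF4EBP2 at chr10:70404145-70428618.

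**Figure D1:**
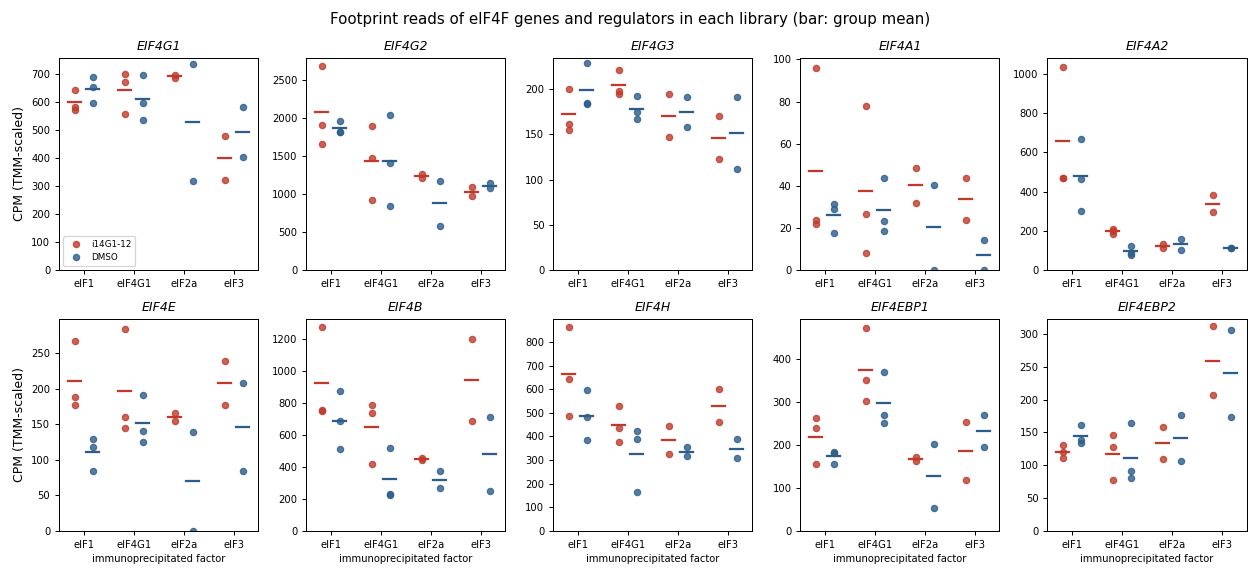
CPM (TMM-scaled, linear axis from 0, a scale of its own in each panel) of each gene in each of the 20 libraries, by immunoprecipitated factor, with i14G1-12 in red left of DMSO in blue; points are libraries and bars group means. Within each treatment EIF4A2 in eIF1 complexes lies above the libraries of the other factors, and EIF4G3 stays between 111 and 229 CPM throughout.

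The first question was whether 1 h of i14G1-12 changed the presence of these mRNAs in each kind of complex. No gene of the family passed edgeR's adjusted threshold of 0.05 in eIF1, eIF4G1, eIF2a or eIF3 complexes, or in the mean over the 4. The helicase gene EIF4A2 and the cofactor gene EIF4B had the smallest p-values in the mean, with log2 fold changes of 0.82 and 0.73. The 3 scaffolds and the 2 repressors had mean log2 fold changes between -0.07 and 0.11. In eIF1 complexes 0 of 10 tested genes were called, where 0.456% of all tested genes were. In eIF4G1 complexes the count was 0 of 9 (all genes 0.347%), in eIF2a complexes 0 of 9 (all genes 0%), in eIF3 complexes 0 of 9 (all genes 0.0159%) and in the mean effect 0 of 10 (all genes 0.541%). EIF4A1 passed the filter on low counts only for eIF1 and in the fit to all 20 libraries. At an unadjusted p under 0.05 stood 1, 2, 0, 1 and 4 members, in the same order, beside 1033 of 8338, 623 of 7203, 87 of 4719, 110 of 6300 and 965 of 9426 tested genes. With so few calls among all genes, a member with a change of the sizes below could be missed, and the counts do not show that the mRNAs were unaffected.

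EIF4A2 codes for 1 of the 2 closely related helicase subunits. In eIF4G1 complexes it had 209, 197 and 185 CPM with i14G1-12, against 74.2, 122 and 87.7 CPM with DMSO. All i14G1-12 libraries were above all DMSO libraries, by 2.10-fold in the fit, a log2 fold change of 1.07 (SE 0.33, adjusted p = 0.248 in edgeR). In eIF3 complexes it had 381 and 296 CPM with i14G1-12, against 110.0 and 111 CPM with DMSO, the second of these from 8 counts. The groups were again apart, with a log2 fold change of 1.57 (SE 0.62) and an edgeR adjusted p of 1.000; with the replicate number as a block the adjusted p was 0.0121. In eIF1 complexes the values were 1034, 471 and 468 CPM with i14G1-12 and 669, 304 and 463 CPM with DMSO. There the groups overlapped, and the log2 fold change was 0.42 (95% interval -0.14 to 0.99, adjusted p = 0.569 in edgeR). Leaving out single libraries gave -0.02 to 0.72, the lowest and only negative value without eIF1 i14G1-12 a. In eIF2a complexes it had 134 and 113 CPM with i14G1-12 and 103 and 159 CPM with DMSO, the last from 3 counts, which also overlapped (log2 fold change 0.15, 95% interval -0.80 to 1.11). The mean CPM went the other way from that fit, at 124 with i14G1-12 and 131 with DMSO. Averaged over the 4 factors the log2 fold change was 0.82 (SE 0.22, 95% interval 0.38 to 1.26, adjusted p = 0.0639 in edgeR), just outside the threshold. The adjusted p ran from 0.00549 to 0.519 over the alternatives, and 3 single libraries decided the side: it passed without eIF1 DMSO a (0.0359), without eIF4G1 i14G1-12 3 (0.0472) or without eIF3 i14G1-12 2 (0.0287).

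The paralog EIF4A1 was too thin to follow. Its counts in eIF1 complexes were 32, 12 and 9 with i14G1-12 and 25, 15 and 22 with DMSO, and the mean log2 fold change over the 4 factors was 0.71 (95% interval -0.07 to 1.49, adjusted p = 0.556 in edgeR). It had 0 counts in the second DMSO library of eIF2a and of eIF3, which allow up to 159 and 41.7 CPM, above most of its values elsewhere. In eIF4G1 complexes its counts were 22, 10 and 9 with i14G1-12 and 19, 9 and 11 with DMSO. The remaining counts were 5 and 12 in eIF2a and 12 and 6 in eIF3 complexes with i14G1-12, and 11 and 0 in eIF2a and 9 and 0 in eIF3 complexes with DMSO.

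EIF4B, whose protein stimulates the helicase, had its largest log2 fold change in eIF4G1 complexes, close to that in eIF3 complexes. It had 738, 420.2 and 784 CPM there with i14G1-12, against 232, 519.6 and 223 CPM with DMSO. The second i14G1-12 library lay below the second DMSO library, so the groups overlapped, and the log2 fold change was 1.00 (SE 0.35, adjusted p = 0.350 in edgeR). In eIF1 complexes it had 1274, 758 and 747 CPM with i14G1-12 and 871, 510.1 and 685 CPM with DMSO (log2 fold change 0.40, 95% interval -0.09 to 0.88). In eIF3 complexes the values were 689 and 1199 CPM with i14G1-12 and 247 and 709.7 CPM with DMSO (log2 fold change 0.95, 95% interval -0.50 to 2.41). In both the groups overlapped, though in eIF3 complexes each i14G1-12 library was above the DMSO library of the same number. In eIF2a complexes both i14G1-12 libraries, at 441 and 458 CPM, were above both DMSO libraries, at 371 and 265 CPM, with a log2 fold change of 0.32 (95% interval -0.41 to 1.04). The second DMSO value rests on 5 counts, and as a plain percentage of counts that library, at 0.0498%, lay above both i14G1-12 libraries, at 0.0453% and 0.0462%. The mean over the factors was 0.73 (SE 0.22, adjusted p = 0.112 in edgeR). Of 20 fits without a single library, 17 did not call it, and the log2 fold change ran from 0.57 to 0.94. It passed without eIF4G1 DMSO 2 (adjusted p = 0.0408 in edgeR). It also passed without eIF3 i14G1-12 1 or eIF3 DMSO 2, at log2 fold changes of 0.82 and 0.94, which leaves 1 library in that group.

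EIF4H, also a cofactor of the helicase, had 863, 641 and 485 CPM in eIF1 complexes with i14G1-12 and 596, 383 and 480.3 CPM with DMSO. Its groups overlapped there and in eIF4G1 complexes, at 436, 529 and 374 CPM with i14G1-12 and 387, 421 and 163 CPM with DMSO. They overlapped in eIF2a complexes too, at 326 and 446 CPM with i14G1-12 and 353 and 317 CPM with DMSO. In eIF3 complexes its groups did not overlap, at 461 and 599.6 CPM with i14G1-12 against 306 and 389.6 CPM with DMSO, but the fit left a wide 95% interval of log2 -0.71 to 1.84. Its mean log2 fold change was 0.43 (SE 0.20, adjusted p = 0.429 in edgeR). Over the 8 group means of log2 CPM, the cofactors EIF4B and EIF4H moved most alike of all pairs of the family (Pearson r = 0.949), then EIF4A2 with EIF4H (0.947) and EIF4A2 with EIF4B (0.889). These are descriptions over 8 points, and the points share libraries and depth.

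EIF4E, the gene of the cap-binding subunit, had its clearest difference in eIF1 complexes. It had 267, 188 and 177 CPM with i14G1-12, against 84.5, 129.6 and 118 CPM with DMSO, with no overlap. The log2 fold change was 0.89 (1.85-fold, SE 0.25, 95% interval 0.37 to 1.41), and the edgeR adjusted p was 0.105. DESeq2 called it (adjusted p = 0.0380), as the only 1 of 12 alternatives. In edgeR without single libraries the adjusted p was 0.151 to 0.354. In eIF4G1 complexes EIF4E had 159.7, 285 and 144 CPM with i14G1-12 and 141, 125 and 191 CPM with DMSO, which overlapped (log2 fold change 0.38, 95% interval -0.31 to 1.07). In eIF3 complexes it had 239 and 178 CPM with i14G1-12 and 84.5 and 209 CPM with DMSO, which overlapped too. In eIF2a complexes it had 166 and 154 CPM with i14G1-12, against 139.7 CPM in the first DMSO library and 0 counts in the second, where 0 counts allow up to 159 CPM. The mean effect was 0.63 (SE 0.22, adjusted p = 0.235 in edgeR). Leaving out single libraries gave 0.44 without eIF3 DMSO 1 to 2.81 without eIF2a DMSO 1, which leaves the library with 0 counts as the lone DMSO library for eIF2a.

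EIF4G1 codes for the scaffold named in the study's title. Its mRNA had 671, 556 and 698 CPM in eIF4G1 complexes with i14G1-12 and 696, 595 and 534 CPM with DMSO. In eIF1 complexes it had 642, 582 and 572 CPM with i14G1-12 and 654, 689 and 595 CPM with DMSO. In eIF2a complexes it had 697 and 685 CPM with i14G1-12 and 735 and 317 CPM with DMSO, the last from 6 counts. In eIF3 complexes the values were 479 and 319.5 CPM with i14G1-12 and 582 and 404 CPM with DMSO. The groups overlapped for all 4 factors, though in eIF3 complexes each i14G1-12 library was below the DMSO library of the same number. The mean log2 fold change over the factors was -0.04, with a 95% interval of -0.41 to 0.32. EIF4G3, the second canonical scaffold, had 195, 221 and 198 CPM in eIF4G1 complexes with i14G1-12, against 167, 192 and 175 CPM with DMSO, which did not overlap but differed by a log2 fold change of only 0.21 (95% interval -0.41 to 0.82). Its mean effect was -0.07 (95% interval -0.45 to 0.32). EIF4G2 spread widely within groups, with 1895, 1473 and 917 CPM in eIF4G1 complexes with i14G1-12 and 1402, 847 and 2032 CPM with DMSO, and a mean effect of 0.11 (95% interval -0.28 to 0.49). In eIF1 complexes EIF4G2 had 2683, 1901 and 1651 CPM with i14G1-12 and 1954, 1816 and 1814 CPM with DMSO, which overlapped. In eIF2a complexes it had 1209 and 1256 CPM with i14G1-12, against 1176 and 582 CPM with DMSO, the last from 11 counts, with no overlap but a log2 fold change of 0.26 whose 95% interval ran from -0.51 to 1.02. The 2 genes whose pattern over the 8 group means was most like that of EIF4G1 were ENSG00000065518 (Pearson r = 0.958) and ENSG00000179218 (0.950), of 9425 compared, 32 of which had r over 0.9.

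The repressor gene EIF4EBP1 had 239.8, 263 and 155 CPM in eIF1 complexes with i14G1-12 and 155, 184 and 181 CPM with DMSO, with overlap. EIF4EBP2 had 119.9, 131 and 112 CPM there with i14G1-12, against 133, 139 and 161 CPM with DMSO. These did not overlap, and the log2 fold change was -0.28 (95% interval -0.78 to 0.23, adjusted p = 0.691 in edgeR). In eIF3 complexes EIF4EBP1 had 254 and 118 CPM with i14G1-12 and 269 and 195 CPM with DMSO, and EIF4EBP2 had 207 and 312 CPM with i14G1-12 and 174 and 306 CPM with DMSO, both overlapping. In eIF4G1 complexes EIF4EBP2 overlapped as well, at 78.1, 146 and 128 CPM with i14G1-12 and 90.6, 164 and 79.7 CPM with DMSO. The mean effects of the 2 repressor genes were 0.07 (95% interval -0.34 to 0.47) and -0.05 (95% interval -0.47 to 0.36).

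Counted by libraries alone, 2 of 10 members did not overlap between treatments in eIF1 complexes (EIF4E higher with i14G1-12, EIF4EBP2 lower), where 18% of all tested genes did not. In eIF4G1 complexes they were 2 of 9 (EIF4A2 and EIF4G3, both higher; all genes 14.2%). In eIF2a complexes 3 of 9 were higher without overlap (EIF4G2, EIF4E and EIF4B, of which EIF4E rests on 0 counts, EIF4B on 5 and EIF4G2 on 11 in the second DMSO library; all genes 29.3%) and in eIF3 complexes 2 of 9 (EIF4A2 and EIF4H; all genes 25.8%). The shares lie near those of all genes. Some of these separations hold only with TMM scaling. As plain percentages of a library's counts, EIF4EBP2 in eIF1 complexes overlapped (up to 0.0110% with i14G1-12, down to 0.00990% with DMSO), as did EIF4G3 in eIF4G1 (down to 0.0171% with i14G1-12, up to 0.0212% with DMSO), EIF4B in eIF2a and EIF4H in eIF3 complexes (down to 0.0459% with i14G1-12, up to 0.0473% with DMSO). On that scale EIF4EBP2 in eIF2a complexes and EIF4G1 and EIF4G2 in eIF3 complexes were lower with i14G1-12 without overlap, which they were not with TMM. The members' median log2 fold change was 0.36 for eIF1, 0.34 for eIF4G1, 0.14 for eIF2a and 0.10 for eIF3, beside 0.00, -0.01, 0.06 and 0.02 for all tested genes. The effect of i14G1-12 in eIF1 complexes minus that in eIF4G1 complexes was called for 0 of 10 members (all genes 0.0318%). For EIF4A2 that difference of log2 fold changes was -0.61 (95% interval -1.58 to 0.36, adjusted p = 1.000 in edgeR) and for EIF4B -0.57 (95% interval -1.59 to 0.45). The other 8 members had differences between -0.41 and 0.55.

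**Figure D2:**
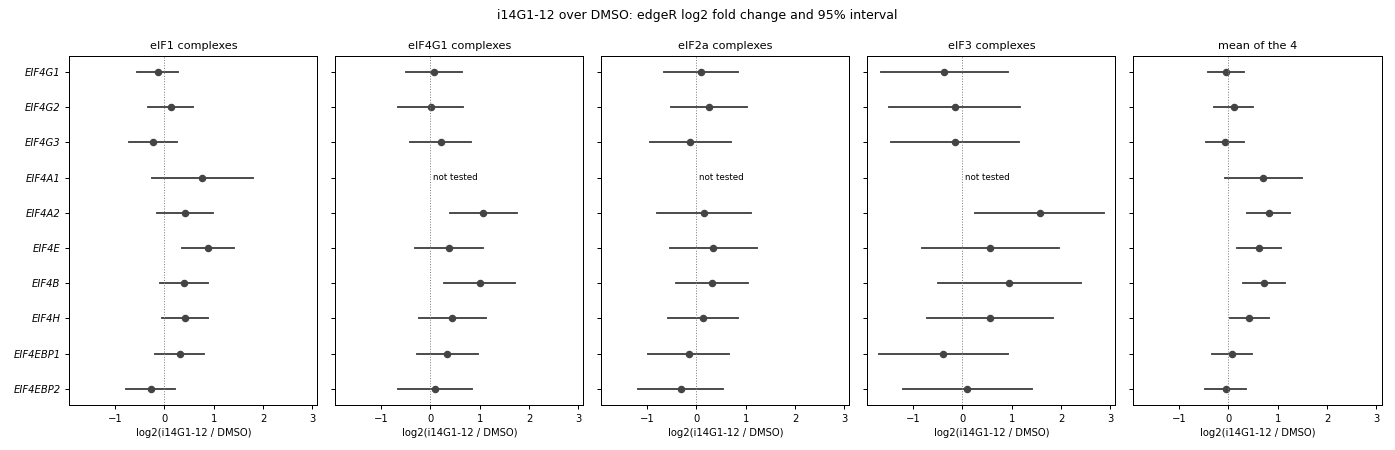
The log2 fold change of i14G1-12 over DMSO for each gene, with its 95% interval from edgeR, in each kind of complex and as the mean of the 4, on a common horizontal axis; the dotted line marks 0. The mean-effect intervals of EIF4A2 (0.38 to 1.26), EIF4B (0.30 to 1.16), EIF4E (0.18 to 1.07) and EIF4H (0.03 to 0.82) lie above 0 before adjustment over all genes, and those of the other genes cross it.

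The second question was which complexes held these mRNAs. EIF4A2 was higher in eIF1 complexes than in the other 3 kinds, under both treatments, and was the only member called in either comparison. With i14G1-12 its eIF1 libraries had 658 ± 326 CPM (SD, n = 3) and the 7 libraries of the other factors 216 ± 93.2 CPM (SD, n = 7). Its fitted log2 fold change was 1.70 (3.25-fold, SE 0.28, adjusted p = 3.52e-05 in edgeR). With DMSO the values were 478 ± 183 CPM (SD, n = 3) in eIF1 complexes and 109.6 ± 26.9 CPM (SD, n = 7) in the others, a log2 fold change of 2.19 (4.55-fold, SE 0.30, adjusted p = 8.73e-07 in edgeR). On the TMM scale an eIF1 library fell among the others in neither treatment. The call held in all alternatives, with log2 fold changes from 1.20 to 1.85 with i14G1-12 and from 1.76 to 2.43 with DMSO. Without eIF1 i14G1-12 library a, the i14G1-12 value was 1.21 (adjusted p = 0.0317). As a plain share of all counts the gap with i14G1-12 was narrow, the lowest eIF1 library having 0.0383% and the highest eIF3 library 0.0379%. With DMSO the groups overlapped on that scale. There eIF1 DMSO b had 0.0275% and eIF2a DMSO 2, from 3 counts, had 0.0299%. Each kind of complex has a count table of its own, so a difference between factors cannot be told apart from one between the preparations of those libraries.

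For EIF4A2 with i14G1-12 eIF1 stood highest, then eIF3 at 338 ± 60.0 CPM (SD, n = 2), eIF4G1 at 197 ± 12.4 CPM (SD, n = 3) and eIF2a at 124 ± 14.7 CPM (SD, n = 2), and no neighbours in that order overlapped. With DMSO eIF1 was followed by eIF2a at 131 ± 39.5 CPM (SD, n = 2), eIF3 at 111 ± 0.93 CPM (SD, n = 2) and eIF4G1 at 94.7 ± 24.7 CPM (SD, n = 3), and these 3 were not separated beyond their spread; 1 of the 2 eIF2a values rests on 3 counts. EIF4A2 in eIF2a complexes against the others with i14G1-12 gave a log2 fold change of -1.51 (SE 0.40, adjusted p = 0.0989 in edgeR), which did not pass.

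Thus 1 of 10 members was called for eIF1 against the others with i14G1-12 (all genes 6.97%) and 1 of 10 with DMSO (all genes 4.08%). EIF4B had 689 ± 181 CPM (SD, n = 3) in eIF1 complexes with DMSO and 367 ± 185 CPM (SD, n = 7) in the others, a log2 fold change of 0.91 (SE 0.31, adjusted p = 0.0847 in edgeR). It passed without eIF4G1 DMSO 2 (adjusted p = 0.0334), eIF3 i14G1-12 1 (0.0440), eIF3 i14G1-12 2 (0.0387) or eIF3 DMSO 2 (0.0138), and without eIF2a DMSO 2 and both eIF3 libraries numbered 2 (0.0109), a set left out after the data were seen. The eIF3 i14G1-12 libraries are not part of the DMSO comparison and act on it only through the shared fit. Without the first or the second of them the log2 fold change of EIF4B was 0.93 or 0.94. EIF4G2 with i14G1-12 had 2079 ± 538 CPM (SD, n = 3) in eIF1 complexes and 1258 ± 338 CPM (SD, n = 7) in the others, a log2 fold change of 0.77 (SE 0.28, adjusted p = 0.0863 in edgeR). Among the fits without a single library it passed only without eIF4G1 i14G1-12 1 (adjusted p = 0.0473 in edgeR). EIF4A1, the helicase paralog, gave log2 fold changes of 0.35 with i14G1-12 (95% interval -0.67 to 1.37) and 0.21 with DMSO (95% interval -0.87 to 1.30).

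**Figure D3:**
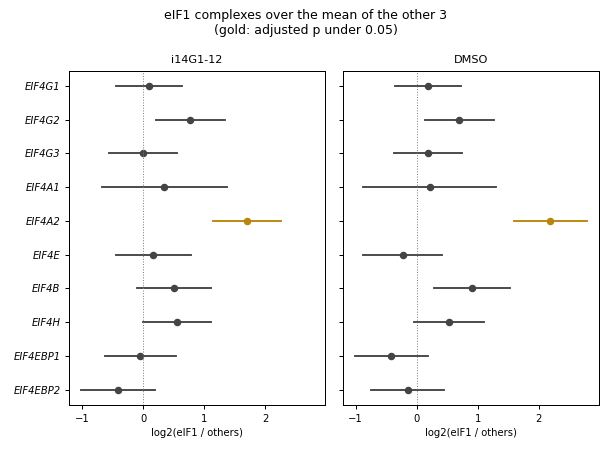
The log2 fold change of eIF1 complexes over the mean of the eIF4G1, eIF2a and eIF3 complexes for each gene, with its 95% interval from edgeR, with i14G1-12 on the left and DMSO on the right; gold marks an adjusted p under 0.05. EIF4A2 is the gold gene in both panels, at 1.70 and 2.19.

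In the other 3 kinds of complex no member was called against the rest. For eIF4G1 the count was 0 of 10 with i14G1-12 (all genes 0.127%) and 0 of 10 with DMSO (all genes 0.117%). Over the members the log2 fold changes ran from -0.62 (EIF4A2) to 0.98 (EIF4EBP1) with i14G1-12 and from -0.95 to 0.62 for the same genes with DMSO. The mRNA of EIF4G1 in complexes pulled down through its own protein gave log2 fold changes of 0.23 with i14G1-12 (95% interval -0.31 to 0.76) and 0.07 with DMSO (95% interval -0.47 to 0.62). EIF4EBP1 had 302, 473 and 350.4 CPM in eIF4G1 complexes with i14G1-12, all above the 7 libraries of the other factors at 195 ± 56.5 CPM (SD, n = 7). Its log2 fold change was 0.98 (SE 0.28, adjusted p = 0.128 in edgeR), and with DMSO it was 0.62 (SE 0.29, adjusted p = 0.940 in edgeR). Among the fits without a single library the i14G1-12 value passed only without eIF3 i14G1-12 1. That fit leaves 1 library in the group and gave a log2 fold change of 1.20.

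For eIF2a the count was 0 of 10 with i14G1-12 (all genes 0.0955%) and 0 of 10 with DMSO (all genes 0.053%), with log2 fold changes from -1.51 (EIF4A2) to 0.37 (EIF4G1) with i14G1-12 and from -0.61 (EIF4A2) to 0.80 (EIF4A1) with DMSO. For eIF3 it was 0 of 10 with i14G1-12 (all genes 2.88%) and 0 of 10 with DMSO (all genes 0.0955%), with log2 fold changes from -0.69 (EIF4G1) to 1.05 (EIF4EBP2) with i14G1-12 and from -1.26 (EIF4A1) to 0.69 (EIF4EBP2) with DMSO. EIF4EBP2 had 207 and 312 CPM in eIF3 complexes with i14G1-12, above all 8 libraries of the other factors at 123 ± 24.6 CPM (SD, n = 8). Its log2 fold change was 1.05 (SE 0.32, adjusted p = 0.0565 in edgeR). Without eIF3 i14G1-12 2 the value was 0.72 (adjusted p = 1.000). It passed when any of 7 libraries was left out, with adjusted p from 0.0308 without eIF3 i14G1-12 1 to 0.0477 without eIF4G1 i14G1-12 3, the others being eIF4G1 i14G1-12 2, eIF4G1 DMSO 2 and 3, and both eIF3 DMSO libraries. The DMSO libraries among these are not part of the i14G1-12 comparison and act on it only through the shared fit. Without any of them the log2 fold change of EIF4EBP2 was 1.06 to 1.08. EIF4G1 lay lower in eIF3 complexes with i14G1-12, at 479 and 319.5 CPM against 638 ± 59.3 CPM (SD, n = 8) in the others, with no overlap on the TMM scale, though as plain percentages of counts they overlapped, and a log2 fold change of -0.69 (SE 0.33, adjusted p = 0.282 in edgeR).

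The last comparison asked whether i14G1-12 shifted the balance between paralogs, which does not depend on library scaling. For no share did the difference pass the test. The share of EIF4A1 in the counts of both helicase genes differed by 1.38 percentage points, i14G1-12 minus DMSO, averaged over the factors (two-sided exact permutation within factors, p = 0.786, adjusted p = 0.786 over 3 shares). The share of EIF4G2 in the counts of the 3 scaffold genes differed by 2.00 points (exact permutation p = 0.406, adjusted p = 0.639), and that of EIF4EBP1 in the counts of both repressor genes by 4.10 points (exact permutation p = 0.426, adjusted p = 0.639). The 14400 arrangements allow a p down to 0.000139. By factor, the EIF4EBP1 difference was 9.30 points for eIF1, 2.99 points for eIF4G1, 12.6 points for eIF2a and -8.52 points for eIF3, so its sign was not shared. With counts pooled over each group, the EIF4A1 difference was -2.70 points and the EIF4EBP1 difference -0.574 points, so neither direction is settled.

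Between factors the shares are a description with no test. The EIF4A1 share in eIF1 complexes was 8.49%, 4.80% and 4.46% with i14G1-12 and 4.15%, 5.45% and 6.38% with DMSO. In eIF4G1 complexes it was 27.2%, 11.9% and 4.17% with i14G1-12 and 19.8%, 16.1% and 33.3% with DMSO. In eIF2a complexes it was 19.2% and 30% with i14G1-12 and 28.2% in the first DMSO library, the second having 0 of 3 counts. In eIF3 complexes it was 10.3% and 7.41% with i14G1-12 and 11.5% in the first DMSO library, the second having 0 of 8 counts. With 250 counts of EIF4A1 in all, single libraries move it widely: the share of 33.3% rests on 11 counts and has a 95% Wilson interval of 19.8% to 50.4%, for counting error alone. The EIF4EBP1 share was 79.4%, 76.4% and 73.2% in eIF4G1 complexes with i14G1-12 and 73.5%, 69.3% and 77.3% with DMSO, all above those of eIF1 complexes, at 66.7%, 66.8% and 58.2% with i14G1-12 and 53.8%, 57.0% and 52.9% with DMSO. The EIF4G2 share in eIF1 complexes was 77.0%, 70.9% and 69.4% with i14G1-12 and 70.0%, 66.4% and 70.0% with DMSO, against 58.9% and 58.8% with i14G1-12 and 55.9% and 55.0% with DMSO in eIF2a complexes, where no library reached those of eIF1. In eIF4G1 complexes it was 68.6%, 65.5% and 50.6% with i14G1-12 and 61.9%, 51.8% and 74.1% with DMSO, and in eIF3 complexes 62.6% and 68.6% with i14G1-12 and 59.6% and 67.5% with DMSO, and both overlapped eIF1.

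**Figure D4:**
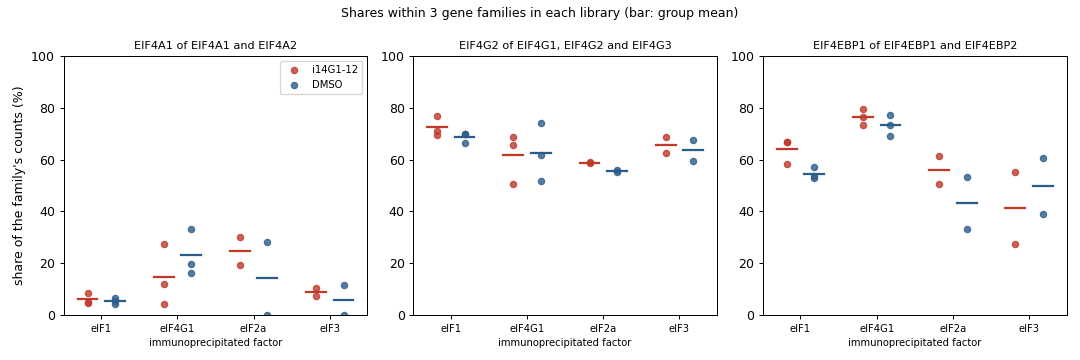
The share of a gene in the counts of its family (percent, not per length) in each library, for the helicases, the scaffolds and the repressors, by immunoprecipitated factor, with i14G1-12 in red left of DMSO in blue and bars at group means. The EIF4EBP1 share is highest in eIF4G1 complexes, between 69.3% and 79.4%, and the 2 treatments overlap there.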

How the data were processed

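Each immunoprecipitation has 1 table of raw gene counts deposited by the authors, all 4 with the same 19029 Ensembl IDs. The counted sequence of a gene was a single interval, except for 4 genes with several. Per the submitters' processing notes, cutadapt, Trimmomatic, Bowtie, HISAT2 and featureCounts were used with hg38, and no versions are given. No input library was analysed, so a value is a share of an immunoprecipitate's RNA and no occupancy. The members and lists were chosen with earlier results of these data known. The 27 further pathway symbols and the cell markers could not be paired with IDs (0 of 27 matched) and were not analysed.

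Counts were filtered with filterByExpr (minimum count 10), scaled with TMM and tested with the quasi-likelihood test of edgeR 4.0.16 (R 4.3.3), with Benjamini-Hochberg adjustment over all tested genes. Each treatment effect was fitted on the libraries of its own factor, with TMM computed anew on those. The CPM shown use TMM over all 20 libraries, so CPM and log2 fold changes of a treatment effect are not on one scale. The mean effect, the difference of effects and the comparisons between factors were contrasts of 1 fit to all 20 libraries, where each factor was set against the mean of the other 3. Adjusted p-values come from that test unless DESeq2 1.42.0 is named; an SE is the size of the log2 value divided by the root of F, and intervals are at 95%. Floors for 0 counts are 3 counts over the effective library size and cover counting error only. On simulated counts the treatment fits called most genes given a large change, except the fit for eIF3, which called few, so a lack of calls there says little. No 2 replicates agreed within counting noise (chi-square per degree of freedom 1.34 or more). Same-numbered libraries did not deviate together for eIF4G1 (correlations of -0.05, -0.10 and -0.15) or eIF2a (-0.12), but they did for eIF3 (0.46). With 2 libraries per group the deviations mirror each other, so the eIF2a and eIF3 values are weak evidence either way. Whether the eIF3 libraries are paired is thus not settled. The main tests were unpaired for every factor, and the replicate block is given as an alternative. Alternatives were other scalings, filters, the DESeq2 test, 1 fit to all libraries, the replicate number as a block and leaving out libraries.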

Additional observations from a re-analysis of the deposited data

How the results depend on the processing

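Of 3022 values of members under alternatives, 2986 kept their side of the threshold, 36 newly passed it and 0 lost it or reversed a call; among values never called, 189 changed sign. Members called went to 1 in place of 0 with the DESeq2 test for the effects in eIF1 (EIF4E) and eIF4G1 complexes (EIF4B), and for eIF4G1 (EIF4EBP1) and eIF2a complexes (EIF4A2) against the others with i14G1-12; the last was also 1 without eIF2a DMSO 2 and both eIF3 libraries numbered 2, an alternative chosen after seeing the data. For the mean effect they were 1 with DESeq2 size factors, 1 with a minimum count of 30, 2 with the DESeq2 test, 1 without those 3 libraries and 0 to 1 when single libraries were left out. Of eIF1 against the others, 2 in place of 1 were called with DMSO without the 3 libraries and with i14G1-12 by the DESeq2 test, and 1 to 2 when single libraries were left out of either. For eIF4G1 against the others with i14G1-12, leaving out single libraries gave 0 to 1. For eIF3 against the others with i14G1-12, 1 (EIF4EBP2) was called with DESeq2 size factors, total counts only, a minimum count of 30 or the DESeq2 test, and 0 to 1 when single libraries were left out. With the replicate block 1 member was called in eIF3 complexes (EIF4A2, adjusted p = 0.0121) and 0 in eIF4G1 and eIF2a complexes; over all genes the block gave 31 calls in place of 25 for eIF4G1, 0 in place of 0 for eIF2a and 38 in place of 1 for eIF3. The labels do not say that numbers mark a shared culture. Crossing the eIF2a numbers, tried after seeing the data, called 0 members and 0 genes. The cause of these shifts was not tested.

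Calls over all genes moved more: over all alternatives they ran from 2 to 174 for the effect in eIF1 (38 as reported), 4 to 97 in eIF4G1 (25), 0 to 13 in eIF2a (0), 0 to 38 in eIF3 complexes (1), 14 to 144 for the mean effect (51) and 1 to 4 for the difference of effects (3). Against the other factors they ran from 101 to 868 for eIF1 with i14G1-12 (657) and 82 to 484 with DMSO (385), 9 to 91 for eIF4G1 with i14G1-12 (12) and 3 to 19 with DMSO (11), 0 to 132 for eIF2a with i14G1-12 (9) and 0 to 8 with DMSO (5), and 7 to 795 for eIF3 with i14G1-12 (271) and 1 to 41 with DMSO (9). The eIF1 counts fell to 101 without eIF1 i14G1-12 a and to 82 without eIF1 DMSO a, and the eIF3 count with i14G1-12 to 11 without eIF3 i14G1-12 2. The 3 paralog shares stayed without a call; leaving out single libraries gave -2.15 to 4.90 points for EIF4A1, 0.65 to 3.44 for EIF4G2 and 0.65 to 7.55 for EIF4EBP1. The shallowest libraries were eIF2a DMSO 2 with 10033 counts and eIF3 DMSO 2 with 59179.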
